A study of Mus musculus with 2 samples.

Results

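The liver makes most of the proteins that clot blood and most of those that kill microbes in it. In the clotting cascade, serine proteases that carry vitamin K-dependent or contact domains activate each other until thrombin cuts fibrinogen to fibrin, and serpins and the fibrinolysis enzymes limit the clot. In the complement cascade, antibody, lectins or spontaneous turnover lead to cleavage of C3, and the terminal components C5 to C9 assemble a pore in the target membrane. The genes for 38 of these plasma proteins, 17 of complement and 21 of coagulation and fibrinolysis, were followed in single-cell RNA-seq of mouse liver. They were taken as a fixed list, and all 38 were found by name among the 31053 genes of the count table.

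Hepatocytes had been isolated by collagenase perfusion, and droplet libraries had been made from transcript 3′ ends, with unique molecular identifiers (UMIs) that count each captured transcript once. The control library (LaptTA;WT) came from a mouse that carries the tetracycline transactivator under the liver-restricted LAP promoter and no tetYAP transgene. The tetYAP 4W library (LaptTA; tetYAP) came from a mouse that carries the same transactivator and, in addition, an inducible mutant YAP, the transcriptional coactivator held back by the Hippo pathway. Doxycycline food had kept the transgene silent, and it was induced for 4 weeks on a regular diet begun in mice 4 weeks old. Each group held 1 library, so no test between groups was possible, and every interval below is a 95% interval that covers counting error only.

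The control library held 2989 barcodes with a median of 3117 UMIs, and the tetYAP 4W library 1524 barcodes with a median of 4150 UMIs. The libraries stood apart in ways other than the transgene. The median share of mitochondrial UMIs was 28.1% in the control and 37.7% in tetYAP 4W. Xist, which silences one X chromosome of females, had 3 and 4859 UMIs in control and tetYAP 4W, and 4 Y-linked genes summed to 716 and 0 UMIs, so the sex of the animal and the transgene cannot be told apart. Yap1 had 155 and 128 UMIs, a log2 ratio of 0.21 (-0.14 to 0.56), and whether transgene transcripts were assigned to it is not given in the sources used here.

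Clustering without the 38 genes gave 2703 hepatocyte-like barcodes in the control and 543 in tetYAP 4W, or 90.4% and 35.6% of the barcodes. All 12 hepatocyte markers, such as Alb and Ttr, were counted in both. No hepatocyte-like cluster had any of them, at 10 UMIs or more, at least 3-fold above the other barcodes of its library. The class is thus what remained where hepatocyte markers were counted and no other class qualified. Per UMI, hepatocyte markers in the other named tetYAP 4W classes stood at 62.0% to 103% of their hepatocyte-like level. Each hepatocyte-like cluster lay wholly in 1 library, with 5 clusters in the control and 2 in tetYAP 4W. The larger tetYAP 4W cluster, of 468 barcodes, had a median mitochondrial share of 61.1%, against 23.1% to 35.0% in the control clusters. A further cluster of 270 tetYAP 4W barcodes (17.7%) held hepatocyte RNA together with 5.71 UMIs of endothelial markers per barcode. In it 3 platelet markers, and no endothelial marker, were at least 3-fold above the other barcodes. Its leading gene was the platelet marker Pf4, and by the naming rule it was therefore left unnamed. Hepatocyte RNA was present in every class: in T or NK, B and erythroid cell-like barcodes, which should make none of these plasma proteins, the 38 genes reached 81.0% of their hepatocyte-like level in the control and 68.6% in tetYAP 4W.

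The sequences are of C8a, C8b and C6, the members with the lowest ratios, of C3, the member with the highest, and of Fgb, the most abundant member in the control. Each line gives bases from the 250 before the start in the RefSeq promoter table on GRCm38.p6, 5′ to 3′ on the strand of the gene. For C8a and C6 that start lies inside the RefSeq gene, and the last 89 and 143 of the 250 bases, which fall within it, are left out. Capitals mark the letters searched, on both strands: the core AAAGTC of the HNF4 motif CAAAGTCCA, the HNF1 motif GTTAAT, the C/EBP motif TTGCAA and the TEAD motif GGAATG.
C8a (chr4:104876488-104876648, minus strand): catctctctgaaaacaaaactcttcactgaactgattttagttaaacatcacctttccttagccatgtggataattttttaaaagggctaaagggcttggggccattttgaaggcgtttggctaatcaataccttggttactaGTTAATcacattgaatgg
C8b (chr4:104766067-104766316, plus strand): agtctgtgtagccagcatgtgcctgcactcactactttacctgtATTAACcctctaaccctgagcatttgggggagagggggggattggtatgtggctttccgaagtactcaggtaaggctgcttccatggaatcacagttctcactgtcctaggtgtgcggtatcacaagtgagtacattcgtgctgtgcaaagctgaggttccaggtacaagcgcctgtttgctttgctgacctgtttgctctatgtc
C6 (chr15:4726960-4727066, plus strand): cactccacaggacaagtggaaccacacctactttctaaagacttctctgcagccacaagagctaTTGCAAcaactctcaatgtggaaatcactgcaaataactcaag
C3 (chr17:57228137-57228386, minus strand): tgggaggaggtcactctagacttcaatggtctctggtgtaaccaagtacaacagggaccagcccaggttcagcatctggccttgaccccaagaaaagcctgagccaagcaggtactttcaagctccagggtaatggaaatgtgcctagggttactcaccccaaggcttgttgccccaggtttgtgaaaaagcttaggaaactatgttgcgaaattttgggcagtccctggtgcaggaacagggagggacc
Fgb (chr3:83049864-83050113, minus strand): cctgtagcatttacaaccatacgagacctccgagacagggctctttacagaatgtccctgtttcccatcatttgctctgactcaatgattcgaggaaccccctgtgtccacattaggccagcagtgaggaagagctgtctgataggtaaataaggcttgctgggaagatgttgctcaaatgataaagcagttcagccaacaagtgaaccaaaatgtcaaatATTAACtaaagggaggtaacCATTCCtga

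The sequence table held a promoter for 30 of the 38 genes, each window running from 250 bases before to 50 after the start. The HNF1 motif occurred in 9 of these 30 (30%) and in 8.24% of the 27025 genes of the table. The HNF4 core occurred in 7 (23.3%) against 15.5%, the C/EBP motif in 4 (13.3%) against 7.09%, and the TEAD motif in 7 (23.3%) against 16.6%. The full HNF4 motif was in none of the 30 windows and in 0.555% of all genes. Among the terminal complement genes, C6, C8a and C8g each held the HNF4 core, for C6 and C8a in bases left out above, which C8b did not, and Hc, C8a and C8b held the HNF1 motif. The C3 window held none of these letters. HNF4, HNF1 and C/EBP are factors known to drive liver genes, and TEAD factors are the DNA-binding partners of YAP. A match of letters is not a bound site, and none was tested here.

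In hepatocyte-like barcodes the 38 genes moved apart from each other. C3, the hub of the complement cascade, was higher in tetYAP 4W, as were Cfb, C2, Pros1 and the complement regulators, while the pore-forming components C6, C8a, C8b and C8g and the fibrinolysis inhibitor Cpb2 were lower. Fibrinogen and the inhibitor of thrombin, Serpinc1, lay close to the median of all genes, which did not hold for every choice of barcodes. Levels were scaled to 1000000 UMIs of the class (CPM). Each ratio is the log2 of the tetYAP 4W CPM over the control CPM, less the median log2 ratio of all genes with at least 30 UMIs over both libraries, which was -0.48 over 8431 genes. The median of the 38 genes was 0.23 (0.06 to 0.37, the medians of their interval bounds). Of the 38 genes, 5 (13.2%) were at least 2-fold lower, beside 12.5% of all genes tested, and 8 (21.1%) at least 2-fold higher, beside 17.4% of all genes tested, so both shares were near the background. The split between higher and lower rests on the reference. With no centring on the median of all genes it was 3 higher and 6 lower, beside 9.49% and 29.2% of all genes. With edgeR TMM factors it was 4 and 6, beside 12.2% and 21.6%, and with totals that leave out mitochondrial and the 50 most abundant genes 14 and 3, beside 23.8% and 6.68%.

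**Figure D1:**
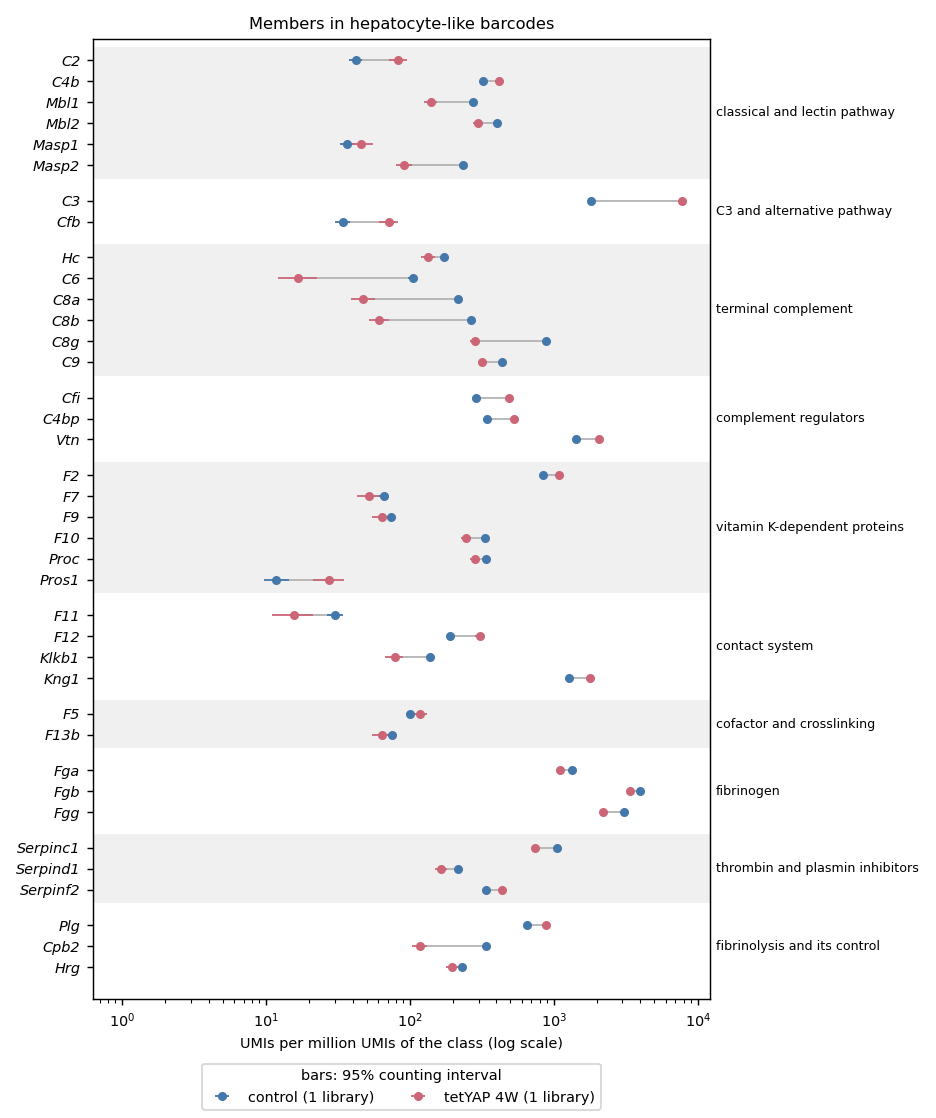
CPM (log scale) of each of the 38 genes in hepatocyte-like barcodes of the control and tetYAP 4W library (1 library each), grouped by role, with 95% counting intervals. C3 moved from 1805 to 7756, above every other member in tetYAP 4W, and C6 from 104 to 16.8.

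The components that form the membrane pore were the lowest group. Summed over its 6 genes, terminal complement had a relative log2 ratio of -0.79 (-0.86 to -0.73), and 4 of the 6 were at least 2-fold lower, where 12.5% of all genes were. C6, which joins the growing complex after C5, had 882 UMIs in the control, or 104 CPM (97.7 to 112), and 41 in tetYAP 4W, or 16.8 CPM (12.1 to 22.8), a relative log2 ratio of -2.16 (-2.65 to -1.71). The 3 chains of C8 also lay lower in tetYAP 4W. C8a had 1837 UMIs (218 CPM, 208 to 228) in the control and 116 (47.6 CPM, 39.3 to 57.1) in tetYAP 4W, a relative log2 ratio of -1.72 (-2.0001 to -1.45). C8b had 2248 UMIs (266 CPM, 255 to 278) and 150 (61.5 CPM, 52.1 to 72.2), a ratio of -1.64 (-1.89 to -1.40). C8g, a lipocalin and the most counted of the group, had 7433 UMIs (880 CPM, 861 to 901) and 693 (284 CPM, 263 to 306), a ratio of -1.15 (-1.27 to -1.04). The other genes of the pore had no settled direction. Hc, which encodes C5, lay at 0.11 (-0.07 to 0.29) and C9, whose copies line the pore, at 0.02 (-0.09 to 0.14), while over the alternatives they ranged from -1.41 to 0.70 and from -1.34 to 0.61.

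The lower values of C6, C8a and C8b held under every alternative run, and no other member was past 2-fold in the same direction in all of its alternatives. C6 ranged from -3.05 to -1.30, C8a from -2.85 to -1.13 and C8b from -3.43 to -1.05 over the 15 alternatives run for hepatocyte-like barcodes, and each was at least 2-fold lower in all 15. The lowest C6 and C8b values came from barcodes of at most 30% mitochondrial UMIs. There C6, C8a and C8b had only 4, 12 and 8 tetYAP 4W UMIs. C8g was lower in all 15 and at least 2-fold lower in 12. C8a and C8b are neighbours on chromosome 4, C8b at 104766317 to 104804548 and C8a at 104815679 to 104876487, with 11130 bases between them. They kept nearly the same proportion to each other, with 0.82 C8a UMIs per C8b UMI (0.77 to 0.87) in the control and 0.77 (0.60 to 0.99) in tetYAP 4W. C8g, which lies on chromosome 2, was lowered less, from 22.0 to 8.43 UMIs per 100 Fgb UMIs, so that it went from 4.05 (3.84 to 4.26) to 5.97 (4.90 to 7.34) UMIs per C8a UMI.

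C3 was the gene with the highest ratio of the list. It had 15238 UMIs in the control, or 1805 CPM (1776 to 1834), and 18909 in tetYAP 4W, or 7756 CPM (7646 to 7868), a relative log2 ratio of 2.58 (2.55 to 2.61). By CPM it stood 3rd among the 38 genes in the control, after Fgb and Fgg, and 1st in tetYAP 4W. Cfb, the protease of the alternative pathway that joins C3b in the C3 convertase, had 289 UMIs (34.2 CPM, 30.4 to 38.4) and 174 (71.4 CPM, 61.2 to 82.8), a ratio of 1.54 (1.26 to 1.81). C2, its counterpart in the classical and lectin pathways, lies 87 bases from Cfb on chromosome 17 and had 356 UMIs (42.2 CPM, 37.9 to 46.8) and 202 (82.9 CPM, 71.8 to 95.1), a ratio of 1.45 (1.19 to 1.70). These higher values depended on which barcodes were counted. Restricting the class to barcodes of at most 30% mitochondrial UMIs, 1675 of the control and 34 of tetYAP 4W, put C3 at 0.14, Cfb at -0.50 and C2 at -0.65. With the class called from markers without clusters, which took in 284 control and 655 tetYAP 4W barcodes of other classes and the 270 of the unnamed cluster, they were at 1.11, 0.20 and 0.36.

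The other genes of the classical and lectin pathways spread to both sides. Mbl2, a mannose-binding lectin and the most counted of the group, had 3378 UMIs (400.1 CPM, 387 to 414) in the control and 720 (295 CPM, 274 to 318) in tetYAP 4W, a relative log2 ratio of 0.04 (-0.08 to 0.15). Its paralogue Mbl1 was at -0.50 (-0.67 to -0.34), so that Mbl2 went from 1.45 (1.38 to 1.53) to 2.11 (1.85 to 2.41) UMIs per Mbl1 UMI. The lectin proteases went apart, with Masp1 at 0.80 (0.48 to 1.12) and Masp2 at -0.88 (-1.08 to -0.67). C4b was at 0.85 (0.75 to 0.96), and reads that it shares with its near-identical neighbour C4a may have been lost or split in counting.

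All 3 complement regulators were at least 2-fold higher, where 17.4% of all genes were. Vtn, which encodes vitronectin and blocks insertion of the pore, had 12000 UMIs (1421 CPM, 1396 to 1447) in the control and 5049 (2071 CPM, 2014 to 2129) in tetYAP 4W, a relative log2 ratio of 1.02 (0.97 to 1.07). Cfi, the protease that inactivates C3b, had 2416 UMIs (286 CPM, 275 to 298) and 1189 (488 CPM, 460.4 to 516), a ratio of 1.25 (1.14 to 1.35). C4bp, its cofactor for C4b, had 2923 UMIs (346 CPM, 334 to 359) and 1296 (532 CPM, 503 to 561), a ratio of 1.10 (0.9996 to 1.19). None of the 3 held its direction in all 15 alternatives. At the 30% mitochondrial limit Vtn was at -0.86, Cfi at -0.70 and C4bp at -0.08, and without clusters they were at -0.24, -0.02 and -0.11.

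Of the 21 coagulation genes, 2 were at least 2-fold higher, beside 17.4% of all genes. They were 1 vitamin K-dependent protein and 1 contact factor. F2, the precursor of thrombin, had 7137 UMIs (845 CPM, 826 to 865) in the control and 2651 (1087 CPM, 1046 to 1130) in tetYAP 4W, a relative log2 ratio of 0.84 (0.77 to 0.90), which was -0.93 at the 30% mitochondrial limit and -0.49 without clusters. The factors of the extrinsic and intrinsic tenase, F7, F9 and F10, lay between 0.04 and 0.28, and Proc, the anticoagulant protease, at 0.23 (0.11 to 0.35). Pros1, which encodes protein S, its cofactor, had 100 UMIs (11.8 CPM, 9.64 to 14.4) and 67 (27.5 CPM, 21.3 to 34.9), a ratio of 1.69 (1.22 to 2.15). By CPM, which includes mitochondrial UMIs, this tetYAP 4W interval overlapped that of T or NK, B and erythroid cell-like barcodes. Endothelial-like barcodes of that library held 158 CPM, and the part of other cells' RNA in the hepatocyte-like Pros1 count was not tested. With 3 tetYAP 4W UMIs left at the 30% mitochondrial limit, Pros1 was at -0.36. F7 and F10 are neighbours on chromosome 8 with 1498 bases between them, and their ratios of 0.11 and 0.04 differed by less than their counting intervals.

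The contact system spread in the same way. Kng1, the kininogen from which bradykinin is cut, had 10696 UMIs (1267 CPM, 1243 to 1291) in the control and 4344 (1782 CPM, 1729 to 1836) in tetYAP 4W, a relative log2 ratio of 0.97 (0.92 to 1.02), which was -0.76 at the 30% mitochondrial limit and -0.20 without clusters. Kng1 may share reads with its close copy Kng2. F12, which starts contact activation, had 1613 UMIs (191 CPM, 182 to 201) and 748 (307 CPM, 285 to 330), a ratio of 1.16 (1.03 to 1.29), which was 0.16 at the 30% mitochondrial limit and -0.26 without clusters. The neighbours F11 and Klkb1, with 4632 bases between them on chromosome 8, were at -0.48 (-1.01 to 0.02) and -0.34 (-0.57 to -0.12). Both encode proteases that F12 activates. F5, the cofactor of prothrombin activation, had 846 UMIs (100.2 CPM, 93.6 to 107) and 288 (118 CPM, 105 to 133), a ratio of 0.71 (0.52 to 0.91), and F13b, the carrier subunit of the fibrin crosslinker, was at 0.24 (-0.03 to 0.49).

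The fibrinogen genes lay close to the median of all genes. Fgb had 33794 UMIs (4003 CPM, 3960.4 to 4046) in the control and 8224 (3373 CPM, 3301 to 3447) in tetYAP 4W, a relative log2 ratio of 0.23 (0.19 to 0.26). Fga was at 0.18 (0.12 to 0.25) and Fgg at -0.02 (-0.06 to 0.03). At the 30% mitochondrial limit Fga, Fgb and Fgg were at -1.37, -1.41 and -1.67, and without clusters at -0.94, -0.97 and -1.15. The 3 genes lie next to each other on chromosome 3 and encode the chains of 1 protein. Over all hepatocyte-like barcodes Fga kept its proportion to Fgb, with 0.34 UMIs per Fgb UMI (0.33 to 0.34) and 0.33 (0.31 to 0.34), while Fgg went from 0.77 (0.76 to 0.79) to 0.65 (0.63 to 0.67). Between the hepatocyte-like clusters of most Malat1, described below, Fga did not keep it. There Fga had 678 and 310 UMIs, a log2 change per Fgb UMI of -1.08 (-1.27 to -0.88).

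Of the 3 inhibitors and 3 fibrinolysis genes, 1 was past 2-fold, Cpb2, which was lower, beside 12.5% of all genes. Serpinc1, antithrombin, had 8939 UMIs (1059 CPM, 1037 to 1081) in the control and 1819 (746 CPM, 712 to 781) in tetYAP 4W, a relative log2 ratio of -0.03 (-0.10 to 0.04), which was -1.55 at the 30% mitochondrial limit and -1.06 without clusters. Serpind1, heparin cofactor II, lay at 0.08, and Serpinf2, the plasmin inhibitor, at 0.83 and, at that limit and without clusters, at -0.81 and -0.47. Plg, plasminogen, had 5471 UMIs (648 CPM, 631 to 665) and 2140 (878 CPM, 841 to 916), a ratio of 0.91 (0.84 to 0.99), which was -0.89 and -0.37 in the same 2 alternatives. Cpb2, a carboxypeptidase that protects fibrin from plasmin, had 2878 UMIs (341 CPM, 329 to 354) and 286 (117 CPM, 104 to 132), a ratio of -1.06 (-1.24 to -0.89). It was lower in all 15 alternatives and at least 2-fold lower in 11. Hrg, the histidine-rich glycoprotein that binds plasminogen, was at 0.25 (0.10 to 0.39).

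**Figure D2:**
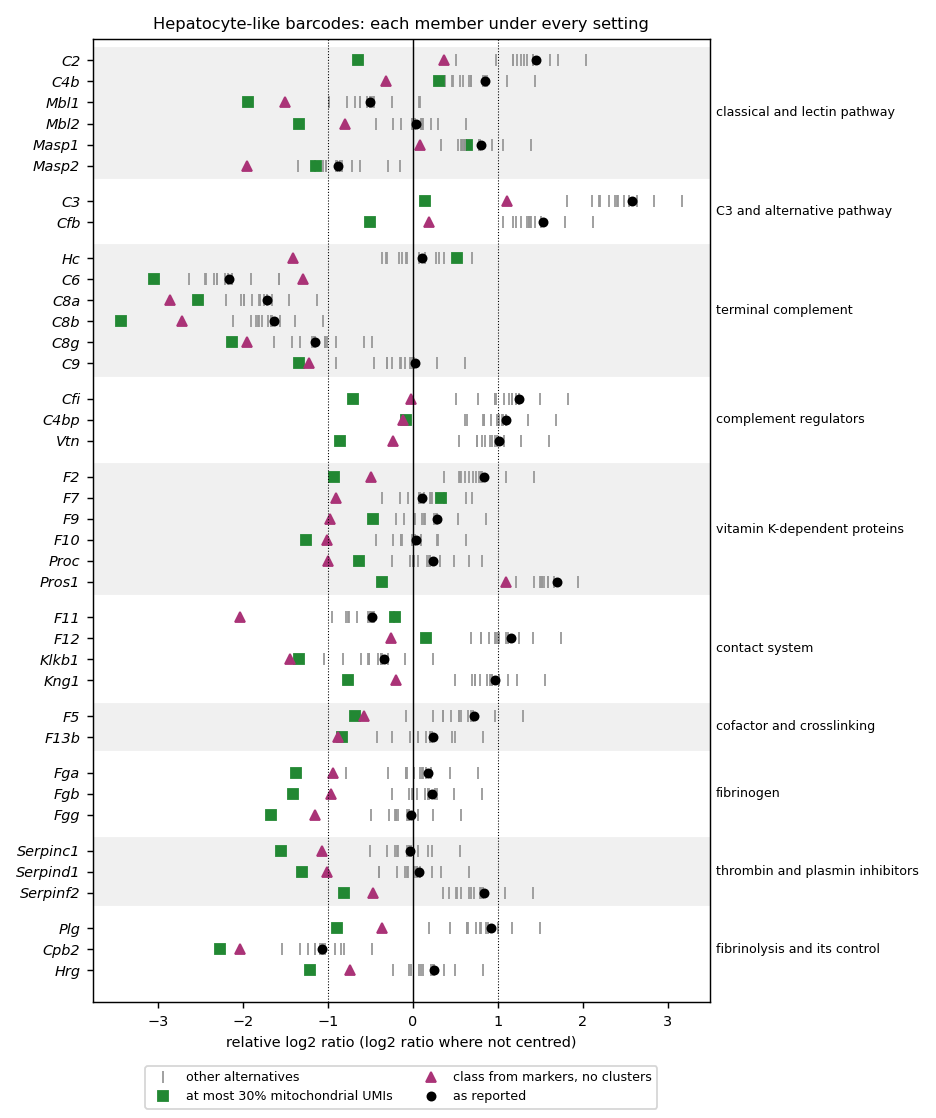
Relative log2 ratio of each member in hepatocyte-like barcodes as reported (black points) and under the 15 alternatives (grey ticks, with the 30% mitochondrial limit as green squares and the class called without clusters as purple triangles); not all alternatives are centred on the median of all genes. C6, C8a and C8b stayed left of -1 throughout, whereas the fibrinogen genes ranged from -1.67 to 0.81.

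The reference total matters less when members are set against each other, so each was also given per 100 Fgb UMIs of the same barcodes. C3 went from 45.1 (44.2 to 45.96) to 229.9 (224 to 236) UMIs per 100 Fgb UMIs in hepatocyte-like barcodes. The direction held in the 34 tetYAP 4W hepatocyte-like barcodes at or under the 30% mitochondrial limit, where C3 stood at 42.4 and 124 per 100 Fgb UMIs and Fgb itself had a relative log2 ratio of -1.41. At that limit 61.4% of all genes were at least 2-fold higher per Fgb UMI, so the C3 value there does not set it apart. It also held between the clusters of most Malat1, a nuclear RNA, whose 118 control and 75 tetYAP 4W barcodes had median mitochondrial shares of 32.2% in both, at 64.7 and 187. C8b went the other way in every set, from 6.65 (6.37 to 6.94) to 1.82 (1.54 to 2.14) per 100 Fgb UMIs in hepatocyte-like barcodes, 6.63 to 1.63 at the mitochondrial limit and 7.44 to 1.79 in the clusters of most Malat1. C8a went from 5.44 to 1.41, 5.29 to 2.45 and 12.2 to 2.46 in these 3 sets, which share barcodes and are not independent. At the mitochondrial limit C8b and C8a had 8 and 12 tetYAP 4W UMIs. Their log2 changes per Fgb UMI there were -2.02 (-3.24 to -1.04) and -1.11 (-2.07 to -0.3). In hepatocyte-like barcodes 6 of the other 37 genes were at least 2-fold lower per Fgb UMI, beside 19.9% of all genes, and 5 at least 2-fold higher, beside 13.2%. The 6 were C6, C8a, C8b, C8g, Cpb2 and Masp2, and the 5 were C3, Pros1, Cfb, C2 and Cfi. At the mitochondrial limit 3 were lower and 9 higher, beside 3.87% and 61.4% of all genes, with Masp2 at a log2 change of 0.28 (-0.25 to 0.76). In the clusters of most Malat1 7 of 35 were lower and 2 higher, beside 20.8% and 9.66%.

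The same measure was taken from the hepatocyte RNA in other cells. In T or NK, B and erythroid cell-like barcodes, 20 in the control and 214 in tetYAP 4W, C3 stood at 40.2 (32.0 to 50.3) and 148 (140.3 to 156) UMIs per 100 Fgb UMIs, and C8b at 7.25 (4.36 to 11.4) and 2.12 (1.58 to 2.78). Intervals did not overlap between the libraries for either gene, and the share of all genes for which this holds was not computed. Of 34 members compared in this set, 3 were at least 2-fold lower per Fgb UMI, beside 4.82% of all genes. The only 1 at least 2-fold higher was C3, beside 14.1% of all genes. For C8a, with 5 and 36 UMIs, the intervals did overlap, at 1.81 (0.58 to 4.28) and 1.46 (1.02 to 2.03).

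**Figure D3:**
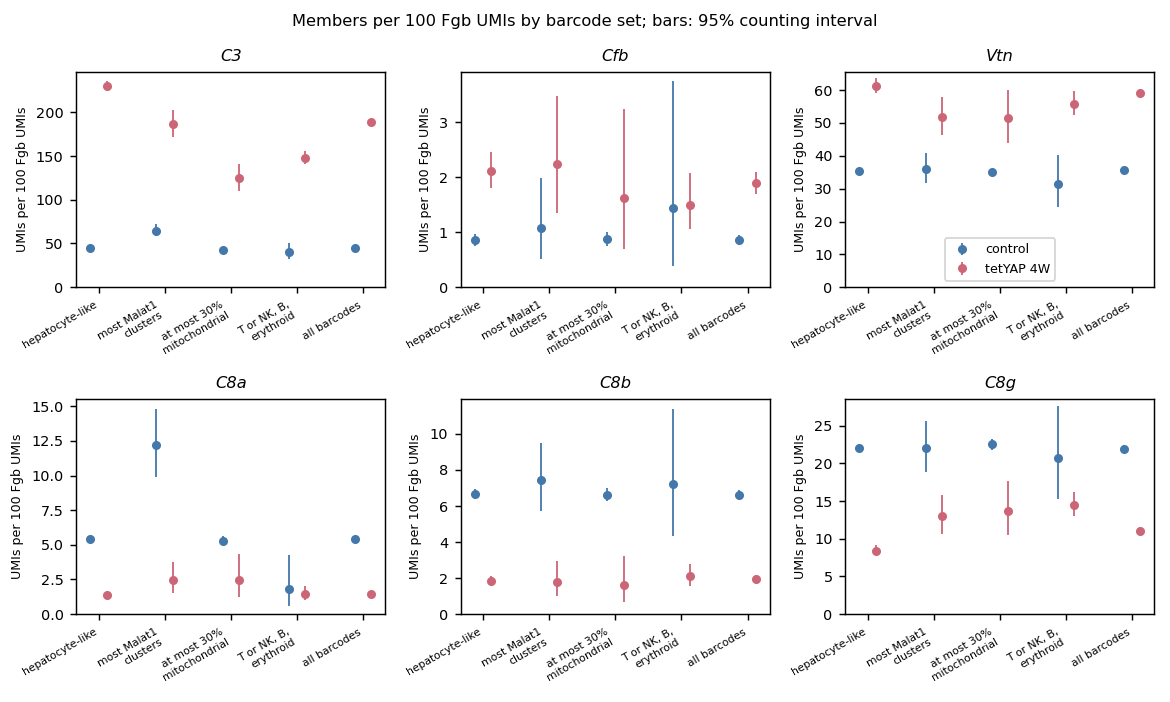
UMIs of 6 members per 100 Fgb UMIs in 5 overlapping sets of barcodes of the control and tetYAP 4W library, with 95% counting intervals; the lymphoid and erythroid set should make none of these genes. C3 and Vtn lay higher and C8b and C8g lower in tetYAP 4W in all 5 sets.

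As a share of what hepatocyte-like barcodes contained, the 38 genes made up 2.20% of the UMIs in the control and 2.62% in tetYAP 4W. Of UMIs that were not mitochondrial they made up 3.10% and 6.44%, and C3 with Cfb alone 0.26% and 1.92%. Per barcode, the share of non-mitochondrial UMIs had a median of 3.10% in the control (lowest 1.32%, highest 9.44%) and 6.55% in tetYAP 4W (lowest 1.87%, highest 12.1%), so the ranges overlapped. Summed over its barcodes, this share was 3.84% in the tetYAP 4W cluster of most Malat1 and 7.03% in that of high mitochondrial share. C3 had 8982 (8557 to 9424) UMIs per 1000000 non-mitochondrial UMIs in the former and 21385 (21067 to 21707) in the latter, against 2516 (2319 to 2726) in the control cluster of most Malat1. C6 was alike in both, at 43.0 (18.6 to 84.8) and 40.9 (28.2 to 57.5), against 231 (174 to 300.2).

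Over all barcodes, which no class call enters, most of the 38 genes lay below the median of all genes. This count includes the change in cell classes, and fewer hepatocytes and less RNA per hepatocyte cannot be told apart in it. The median of the 38 genes was -0.93 (-1.05 to -0.77), where the median of all 10826 genes tested was at a log2 ratio of 0.51. Of the 38 genes, 16 (42.1%) were at least 2-fold lower, beside 17.7% of all genes, and 2 (5.26%) at least 2-fold higher, beside 24.0% of all genes. With no centring 7 were lower and 2 higher, beside 7.76% and 34.6% of all genes. The lowest were C8a at -2.88 (-3.06 to -2.70), C8b at -2.73 (-2.89 to -2.57), F11 at -2.07 (-2.48 to -1.69), Cpb2 at -2.05 (-2.16 to -1.94), Masp2 at -1.98 (-2.12 to -1.85) and C8g at -1.97 (-2.04 to -1.90). The 2 that were higher were Pros1 at 1.10 (0.81 to 1.40), with 145 UMIs in the control and 315 in tetYAP 4W, and C3 at 1.09 (1.06 to 1.11), with 16882 and 36273. All 6 terminal complement genes were at least 2-fold lower, against 4 of 6 in hepatocyte-like barcodes.

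**Figure D4:**
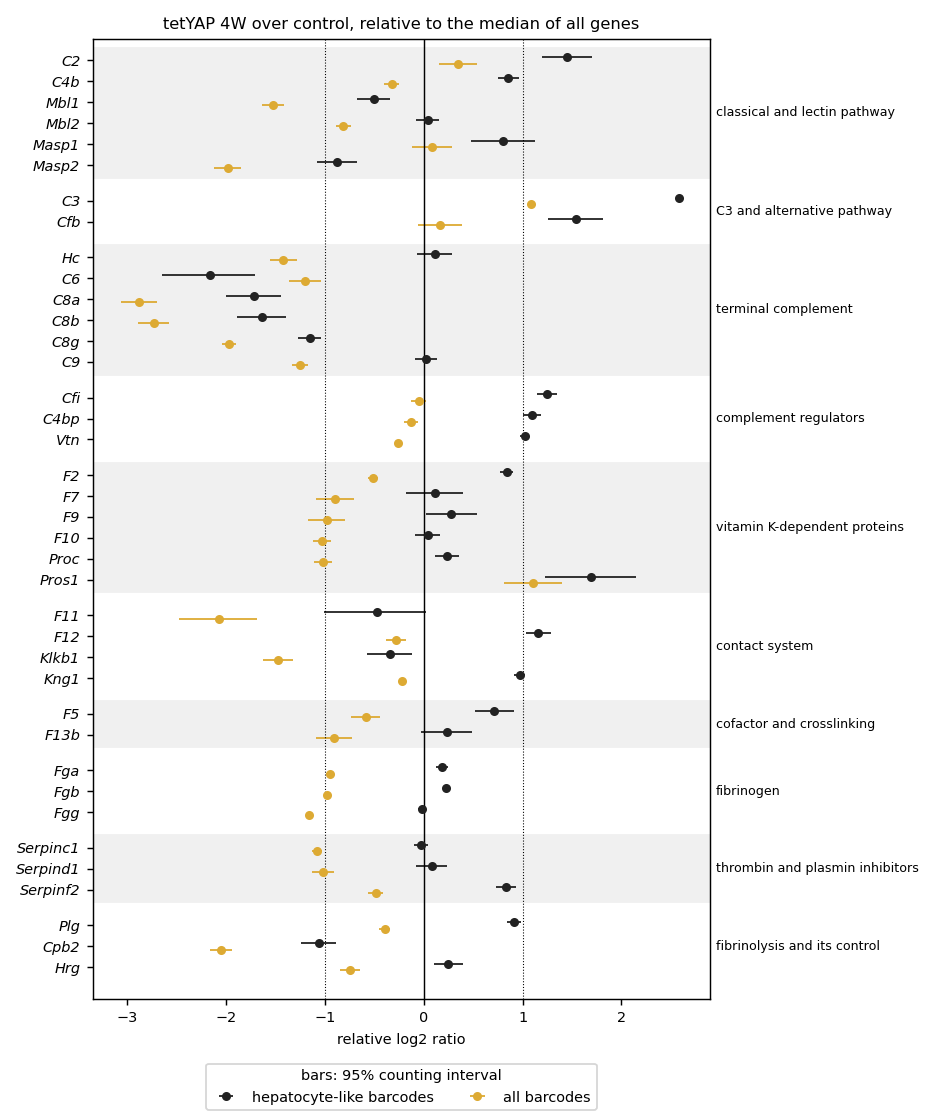
Relative log2 ratio of tetYAP 4W over control of each member in hepatocyte-like barcodes (black) and in all barcodes (yellow), grouped by role, with 95% counting intervals and dotted lines at 2-fold. In all barcodes 33 of 38 genes lay below 0, with Pros1 and C3 above 1, while in hepatocyte-like barcodes 11 of 38 lay below 0.

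Several members were counted above the hepatocyte-like level in another class. C6 was counted in macrophage-like barcodes above the hepatocyte-like level of the same library, with 46 UMIs or 278 CPM (203 to 370.2) in the control and 365 UMIs or 298 CPM (268 to 330.5) in tetYAP 4W. The macrophage-like values of the libraries overlapped, while the hepatocyte-like values did not. Of all C6 UMIs, 14.4% (12.3% to 16.7%) lay outside hepatocyte-like barcodes in the control and 91.0% (87.9% to 93.4%) in tetYAP 4W. The libraries had 44 and 278 macrophage-like barcodes. C6 over all barcodes, at -1.20, sums over both classes. In T or NK, B and erythroid cell-like barcodes, which should lack C6, it stood at 180 CPM (100.5 to 296) from 15 UMIs in the control, whose interval overlapped that of the macrophage-like barcodes, and at 12.7 CPM (6.56 to 22.2) in tetYAP 4W, where the intervals did not overlap. The macrophage-like level was thus above background in tetYAP 4W, while in the control the difference was not detectable at this depth. By CPM, C4b was the other member above the hepatocyte-like level there, with 536 CPM (496 to 579) in macrophage-like and 418 CPM (393 to 444) in hepatocyte-like barcodes of the tetYAP 4W library. CPM totals include mitochondrial UMIs, whose median share was 30.6% in these macrophage-like and 60.3% in these hepatocyte-like barcodes. The C4b order therefore depends on the total used.

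Pros1 and Masp1 were counted in endothelial-like barcodes. Pros1 reached 59.1 CPM (42.1 to 80.8) there in the control, against 11.8 in hepatocyte-like barcodes, and 158 CPM (131 to 189.6) in tetYAP 4W, against 27.5. Masp1 reached 78.8 CPM (58.9 to 103.4) against 36.6 in the control and 178 CPM (149.5 to 211) against 45.9 in tetYAP 4W. In both libraries the endothelial-like values lay above the hepatocyte-like ones beyond counting error, although hepatocyte markers there were at 82.2% and 62.0% of their hepatocyte-like level. In T or NK, B and erythroid cell-like barcodes Pros1 had 0 UMIs in the control, of 83500 in all, with an upper bound of 44.2 CPM, and 22.2 CPM (13.8 to 33.97) in tetYAP 4W, and Masp1 47.9 CPM (13.1 to 123) and 40.2 CPM (28.5 to 55.2). These intervals overlapped those of endothelial-like barcodes in the control and did not in tetYAP 4W. Masp1 was also above the hepatocyte-like level in stellate or mesenchymal cell-like barcodes of the tetYAP 4W library, at 231 CPM (155 to 332) from 29 UMIs, as was C2, at 167 CPM (103.5 to 256) from 21 UMIs. In cells that should lack all members, Proc with 5 UMIs and F13b with 3 lay above their hepatocyte-like level in the 1 B cell-like barcode of the control. By CPM, C8g and Mbl2 did so at 378 CPM (339.6 to 419) and 364 CPM (327 to 405) in the T or NK, B and erythroid cell-like barcodes of the tetYAP 4W library, against 284 and 295 in its hepatocyte-like barcodes. In that library the median mitochondrial share was 25.4% in this set, 40.9% in stellate or mesenchymal cell-like and 60.3% in hepatocyte-like barcodes. The C8g and Mbl2 excess, and the size of that of C2, therefore depend on the total used.

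**Figure D5:**
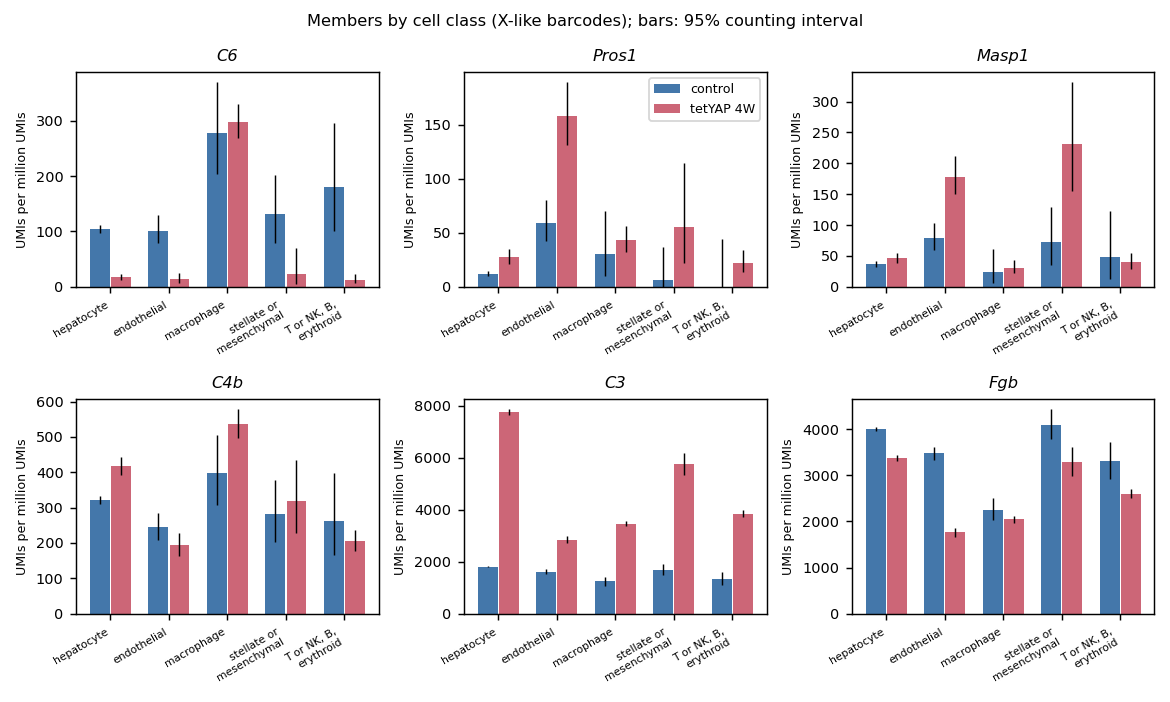
CPM of 6 members in 5 cell classes (X-like barcodes) of the control and tetYAP 4W library, with 95% counting intervals. C6 was at 278 and 298 in macrophage-like barcodes and Pros1 at 59.1 and 158 in endothelial-like barcodes, while C3 in tetYAP 4W was highest in hepatocyte-like barcodes.

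Of 57 other genes of the cascades, 36 had enough UMIs in hepatocyte-like barcodes, and 3 were at least 2-fold lower and 14 at least 2-fold higher, beside 12.5% and 17.4% of all genes. The 14 included all 5 complement genes of myeloid cells that could be compared there, such as C1qa, and also Fcna and Anxa2. Between 91.8% and 93.5% of the tetYAP 4W UMIs of these genes lay outside hepatocyte-like barcodes. RNA of other cells in their hepatocyte-like counts was not separated. Over all barcodes 44 had enough UMIs, and 10 were lower and 20 higher, beside 17.7% and 24.0%. Of 19 further plasma proteins, 17 had enough UMIs in hepatocyte-like barcodes, with 2 lower and 6 higher, Fcna among the 6. Over all barcodes 8 of 17 were lower and 2 higher, and all these counts are to be read against the same shares of all genes. Clu, clusterin, which like Vtn blocks the pore, was at 1.35 (1.29 to 1.41) in hepatocyte-like and 0.03 in all barcodes. Of the 6 genes of the vitamin K cycle and of factor secretion, none was past 2-fold in hepatocyte-like barcodes, and Vkorc1, the target of warfarin, was nearest at -0.91 (-1.32 to -0.53) and was at -1.59 in all barcodes.

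All 11 complement genes of myeloid cells that could be compared over all barcodes were at least 2-fold higher, where 24.0% of all genes were. C1qa, C1qb and C1qc, the chains of the first component of the classical pathway, went from 313, 194 and 166 UMIs to 4652, 3804 and 2670, relative log2 ratios of 3.88, 4.28 and 3.99. Between 92.6% and 93.5% of their tetYAP 4W UMIs lay outside hepatocyte-like barcodes, beside 64.0% of the UMIs of all genes. The rest followed them, with Cfp, properdin, at 4.08, the receptors C3ar1, C5ar1 and Vsig4 at 2.79, 5.05 and 3.81, the integrin chain Itgb2 at 4.26, Itgam, from 1 to 75 UMIs, at 4.63 (3.69 to 11.5), and the lectin Fcna, counted with the plasma proteins, at 3.97. F13a1 and Itgax had 0 UMIs in the control and 34 and 35 in tetYAP 4W. The macrophage-like share of barcodes was 1.47% in the control and 18.2% in tetYAP 4W. C1qa also had 322 UMIs in the hepatocyte-like barcodes of the tetYAP 4W library, against 45 in the control.

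Of the vessel wall and cell surface genes, 7 could be compared over all barcodes, with 6 at least 2-fold higher and 1 lower, where 24.0% and 17.7% of all genes were. Tfpi, the inhibitor of tissue factor, went from 75 to 316 UMIs and Thbd, thrombomodulin, from 14 to 106, relative log2 ratios of 2.06 and 2.90. F8, the cofactor of F9 that sinusoidal endothelium makes, went from 93 to 321 UMIs (1.77), and Cd55, a membrane regulator of C3 convertases, from 128 to 477 (1.88). For these 4 genes between 96.5% and 99.1% of the tetYAP 4W UMIs lay outside hepatocyte-like barcodes, beside 64.0% of the UMIs of all genes. Anxa2, a surface receptor for plasminogen, went from 47 to 461 UMIs (3.28), the thrombin receptor F2r from 53 to 154 (1.52), and Plaur, the urokinase receptor, from 0 to 47. Serpine2, protease nexin, was the lower one, from 76 to 3 UMIs, a ratio of -4.68 (-6.99 to -3.08). The part that the make-up of the cell suspension had in these values was not tested.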

How the data were processed

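The authors made 10x Genomics 3′ libraries, aligned and counted them with Cell Ranger 3.0.0 on mm10, stated a reduction to 3000 cells per condition and left out cells above 7500 UMIs. They deposited raw UMI counts per gene and barcode, in which no barcode exceeded 7500 UMIs. The control holds 2989 barcodes and tetYAP 4W 1524, and what set the latter number is not given in the sources used here. The members and all gene lists were chosen with earlier results of these data known.

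Barcodes were clustered from log-normalised counts without the 38 genes and named from marker lists, by a scoring rule set after seeing the data, and no doublet caller was run. UMIs were summed per library and class and divided by the class total (CPM). One tag is counted per transcript, so no length correction was made. Log2 ratios were centred on the median of all genes with at least 30 UMIs over both libraries. A gene was counted as higher or lower past 2-fold. Every member was named, and those past 2-fold in hepatocyte-like barcodes or most counted in their role group were given with counts and CPM. With 1 library per group there was no test, and the edgeR quasi-likelihood test could not be run. Intervals were exact Poisson for counts, Clopper-Pearson for shares and conditional binomial for ratios, at 95%, and UMIs of 1 barcode are not independent samples of animals. Alternatives changed the scaling (edgeR 4.0.16 TMM factors, R 4.3.3), the UMI minimum, the barcodes and the class calls. Scripts were tested on simulated data. Promoters came from RefSeq on GRCm38.p6, and gene positions from the RefSeq gene table of the same build. One gene of the wider cascades is not reported here.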

Additional observations from a re-analysis of the deposited data

How the results depend on the processing

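No paired analysis was possible because each group held 1 library. Alternatives marked added were chosen after seeing the data. In hepatocyte-like barcodes the median of the members was -0.25 with no centring, -0.038 with TMM factors, 0.49 with totals without mitochondrial and the 50 most abundant genes, 0.0558 with a minimum of 10 UMIs, 0.82 with one of 300, -0.87 without barcodes above 30% mitochondrial UMIs, -0.92 with the class called from markers, 0.0232 with members kept in the clustering and 0.0075 with the unnamed cluster counted in (added). The numbers lower and higher were 6 and 3 with no centring, 6 and 4 with TMM, 3 and 14 without the abundant genes, 6 and 5 at 10 UMIs, 3 and 14 at 300, 17 and 0 at the mitochondrial limit, 15 and 2 from markers, 6 and 4 with members in the clustering and with the unnamed cluster, 5 and 5 at a Leiden resolution of 0.4, and 4 and 3 in the clusters of most Malat1 (added). Shares of all genes lower and higher were 29.2% and 9.49% with no centring, 21.6% and 12.2% with TMM, and 6.68% and 23.8% without the abundant genes. They were 14.8% and 19.8% at 10 UMIs, 4.44% and 14.7% at 300, 25.1% and 20.8% at the mitochondrial limit, and 17.7% and 23.7% from markers. With members in the clustering they were 9.84% and 17.1%, with the unnamed cluster 9.88% and 17.1%, and at the 0.4 resolution 9.52% and 15.5%. In the clusters of most Malat1 they were 11.7% and 15.8%. There and at 300 UMIs 36 members were compared. That limit gave 21 of the 38 members, and the class from markers 22, the other sign. Of the members past 2-fold, the limit turned C2 (-0.65), Cfb (-0.50), Cfi (-0.70), C4bp (-0.0824), Vtn (-0.86) and Pros1 (-0.36), and the class from markers Cfi (-0.0221), C4bp (-0.11), Vtn (-0.24) and F12 (-0.26). In all barcodes the median was -0.42 with no centring, -0.46 without the abundant genes, -0.41 at 300 UMIs, -1.47 at the mitochondrial limit, where C3 was at -0.0663, and -0.74 after thinning each barcode to 2000 UMIs, which left out 91 control barcodes. The number lower was 7, 7, 7, 28 and 10 in that order, beside 7.76%, 8.39%, 13.7%, 21.8% and 16.4% of all genes. The number higher was 0 at the mitochondrial limit, beside 24.3%, and 1 at a minimum of 10 UMIs, beside 26.4%. The cause was not tested. The remaining alternatives kept medians and counts near those reported, and the 5 ratios of a class to hepatocyte-like barcodes kept theirs, but a resolution of 0.4 named no macrophage- or stellate-like cluster and gave no value. With 1 library per group, depth limits only the counting error, and the spread between animals is unknown.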

Other observations

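The order of the 38 genes by CPM in hepatocyte-like barcodes was similar in the libraries, with a Spearman correlation of 0.89 across genes, which share libraries and are not independent. F12 went from place 26 to 15, C8b from 21 to 32 and Cpb2 from 14 to 25. Pros1 went from 0.04 to 0.10 UMIs per UMI of Proc, the protease whose cofactor it is, with intervals of 0.03 to 0.04 and 0.07 to 0.12. RNA of other cells in the Pros1 count was not separated.

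In the unnamed tetYAP 4W cluster, 12 members lay above their hepatocyte-like CPM beyond counting error, where hepatocyte markers stood at 1.29 times theirs. The share of all genes that did so was not computed. C8g reached 487 CPM (444 to 532) and Mbl2 470.2 CPM (428 to 515) there. C3 was at 5769 CPM (5620 to 5922), below the 7756 CPM of hepatocyte-like barcodes. CPM totals include mitochondrial UMIs, whose median share was 35.7% in this cluster and 60.3% in hepatocyte-like barcodes. With mitochondrial UMIs left out of the total, Fgb was at 6040 CPM in this cluster. It was at 9093 CPM in the hepatocyte-like cluster of high mitochondrial share and 4808 CPM in that of most Malat1. C8g was at 787, 716 and 624 CPM in the same order. The count of 12 therefore depends on the total used.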
